A study of Mus musculus with 12 samples.

Results

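The genes described here are 8 iron handling genes in D2A1 cells, which are mouse mammary carcinoma cells, recovered by sorting from the lungs of mice injected in the tail vein. They were chosen by name as Fth1, Ftl1, Tfrc, Slc11a2, Slc11a1, Slc40a1, Hmox1 and Ncoa4, and all 8 were among the 54146 genes of the expression table. RNA was measured in 12 libraries. Of these, 6 came from dormant tumor cells, which retained the membrane dye CellVue Claret, and 6 from growing tumor cells, which had lost it through division. In each state 3 libraries came from WT hosts and 3 from Tgfbr2 KO hosts (n = 3 per group). Per the study's methods the hosts were female and 6 to 8 weeks old. The hosts labelled WT are also called WT in the methods on sequencing, and Tgfbr2 fl/fl controls in the figure legends. The KO hosts had lost Tgfbr2, which encodes a TGF-beta receptor, through Cre driven by the lysozyme 2 promoter, which acts in myeloid cells. The deletion was in the host and not in the D2A1 cells, which in all 4 groups carried a doxycycline-inducible histone fused to green fluorescent protein. Lungs were taken 12 days after injection by the methods and 14 days by the main text. Every WT library bears batch 1 and every KO library batch 2 in the column names, so host and library batch cannot be told apart in any KO against WT comparison, whereas dormant and growing cells of the same host share a batch.

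Cells take up iron bound to transferrin through the transferrin receptor (Tfrc), move it out of endosomes through the divalent metal transporter (Slc11a2), store it in ferritin shells built of heavy (Fth1) and light (Ftl1) chains, and export it through ferroportin (Slc40a1). Macrophages in addition clear iron from phagosomes through Slc11a1 and release it from heme through heme oxygenase 1 (Hmox1), and Ncoa4 carries ferritin to the lysosome for breakdown. Much of this control acts on mRNA after transcription. Iron regulatory proteins bind hairpins called iron-responsive elements and, when iron is scarce, block translation of mRNAs that carry the hairpin in the 5′ UTR and protect those that carry it in the 3′ UTR. A transcript level therefore does not give the ferritin protein level, which was not measured in these libraries.

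The hairpins are shown because this control acts through them. The annotated UTRs of the members were searched on the sense strand for CNNNNNCAGTGN, in which the 5 bases before the CAGTGN loop pair with the 5 bases after it (G-T pairs allowed) and the first C is the unpaired bulge. Matches lay in 4 of the 8 members. Each is given 5′ to 3′ as DNA with the loop in capitals and the rest of the hairpin in lower case (mouse genome build GRCm38, GENCODE M21).
Fth1, 5′ UTR, chr19:9982733-9982759, plus strand: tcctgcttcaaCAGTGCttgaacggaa
Ftl1, 5′ UTR, chr7:45459780-45459806, minus strand: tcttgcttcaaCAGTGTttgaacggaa
Slc40a1, 5′ UTR, chr1:45925466-45925492, minus strand: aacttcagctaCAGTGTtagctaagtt
Tfrc, 3′ UTR, chr16:32631220-32631246, plus strand: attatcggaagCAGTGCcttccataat
Tfrc, 3′ UTR, chr16:32631599-32631625, plus strand: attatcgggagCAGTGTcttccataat
Tfrc, 3′ UTR, chr16:32631664-32631690, plus strand: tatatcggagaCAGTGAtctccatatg
Tfrc, 3′ UTR, chr16:32631711-32631737, plus strand: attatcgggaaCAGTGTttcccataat
The same letters occurred in the 5′ UTR of 31 of 20916 genes (0.148%) and in the 3′ UTR of 129 of 21039 genes (0.613%). The ferritin, ferroportin and transferrin receptor hairpins are textbook elements, whereas a match of these letters elsewhere is a description only. One isoform of Slc11a2 is known to carry an atypical element in its 3′ UTR, which these letters do not describe, so a member without a match is not thereby outside this control. The search asked for all 5 pairs and this loop, so the matches shown for a gene, Tfrc included, need not be all of its elements.

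Values are TPM, a relative transcript level in which gene length and library total are divided out. TPM keeps no depth, so the reads behind a value are unknown. Differences were tested with limma on log2(TPM + 1) over all 13002 genes that reached 1 TPM in at least 3 libraries. All 8 members passed this filter. A gene was called where its difference was at least 1 on that scale and its p, adjusted by the Benjamini-Hochberg method, at most 0.05, which is 2-fold away from low TPM. All adjusted p values below come from this limma fit unless another test is named.

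The libraries differed in ways that bear on these genes. Each was made from 50 sorted cells, and the dormant WT libraries listed more genes at 0. Of 4009 genes with at least 10 TPM in all 6 growing libraries, 4.27 to 12.2% were listed at 0 in the dormant WT libraries and 0.723 to 0.823% in the dormant KO libraries. Markers of other cells also moved with the groups. The summed TPM of 15 macrophage markers was 1954 to 2227 in dormant WT, 3638 to 4032 in dormant KO, 103.5 to 118.3 in growing WT and 246.6 to 275.7 in growing KO libraries, although Marco was listed at 0 in all 6 growing libraries and Adgre1 reached at most 9.17 TPM anywhere. Between the dormant groups this sum followed Lyz2, at 782.38 to 1407.09 TPM in WT and 2832.61 to 2944.34 TPM in KO hosts, whereas C1qa was at 161.39 to 322.79 TPM in WT and 117.38 to 140.88 TPM in KO hosts, and C1qb, C1qc, Mrc1 and Marco also reached higher values in WT hosts. Neutrophil markers summed to 4479 to 4841 in dormant KO libraries and to at most 921.6 elsewhere, erythroid markers to 50830 to 56260 against at most 13030, and alveolar type 2 markers to 40080 to 42420 against at most 468.6. The 7 carcinoma markers summed to 604.4 to 728.4 TPM in dormant KO, 957.4 to 1294 in dormant WT, 1283 to 1402 in growing WT and 1489 to 1721 in growing KO libraries, and 3 of 5 tested were called lower in dormant than in growing KO libraries. Between dormant KO and dormant WT libraries 1 of the 5 was called higher and 1 lower. Krt8, Krt18 and Vim were present in every library, with Vim at 371.68 to 432.39 TPM in dormant KO and at least 639.12 elsewhere and Krt18 at 158.54 to 248.67 TPM in dormant KO and 130.6 to 231.14 in dormant WT libraries, Krt5 was listed at 0 in 3 of the 4 groups and Epcam reached at most 5.34 TPM. The part of these other cells in any result below was not tested, and in sorted aliquots fewer cells of a type cannot be told apart from less RNA per cell.

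Ferritin transcripts were among the most abundant in every library. Fth1 ranked between 8 and 16 and Ftl1 between 2 and 14 of all genes by TPM. The pair made up 1.8% ± 0.206 of all TPM in dormant WT, 1.77% ± 0.122 in dormant KO, 2.13% ± 0.0916 in growing WT and 2.14% ± 0.0159 in growing KO libraries (SD, n = 3). A further 12 genes with names starting in Fth or Ftl were in the table, of which 3 were above 0 anywhere, at most at 1.1 TPM. Ferritin copies under other names were not looked for.

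Fth1 (ENSMUSG00000024661.6, chr19:9980598-9985098), the chain that oxidizes iron for storage, had nearly the same TPM in all groups. Its level was 7910.22, 8411.25 and 8581.94 TPM in the dormant WT, 8158.74, 8997.58 and 8347.46 in the dormant KO, 8584.36, 7853.86 and 8446.11 in the growing WT and 7666.16, 7961.61 and 8102.12 in the growing KO libraries. The highest was 1.17-fold the lowest, and the coefficient of variation of 4.59% was the lowest of 1401 genes with a mean of at least 100 TPM, whose median was 37.1%. This evenness belongs to the TPM scale, since after median-ratio scaling, which sets the typical gene level across libraries, the coefficient of variation of Fth1 was 22.5% (rank 190 of 1401). Dormant and growing cells of WT hosts differed by 0.00 on the log2(TPM + 1) scale (95% interval -0.107 to 0.109), by 0.08 (adjusted p = 0.583) after median-ratio scaling and by -0.29 (adjusted p = 0.00101) after quantile normalization. In KO hosts the dormant libraries all lay above the growing ones, by 0.10 (-0.005 to 0.211, adjusted p = 0.182), and this difference was 0.70 (adjusted p = 7.3e-05) after median-ratio scaling and -0.47 (adjusted p = 8.15e-06) after quantile normalization. Between the hosts dormant cells differed by 0.03 (-0.074 to 0.142), which the same scalings turned to 0.55 (adjusted p = 0.000226) and -0.16 (adjusted p = 0.0104). The interaction was 0.10 on TPM, 0.62 (adjusted p = 0.00316) after median-ratio scaling and -0.18 (adjusted p = 0.0754) after quantile normalization, so no direction of Fth1 between these groups held across the scalings.

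Ftl1 (ENSMUSG00000050708.16, chr7:45457944-45459884), the chain that helps the iron core form, had lower TPM in dormant than in growing cells of both hosts. In WT hosts the dormant libraries held 7733.67, 10687.08 and 10747.30 TPM of Ftl1 and the growing ones 13182.36, 12429.99 and 13510.65 TPM. In KO hosts the dormant libraries held 8793.64, 10145.04 and 8765.34 TPM and the growing ones 13736.39, 13328.16 and 13501.05 TPM. No dormant library reached the lowest growing one in either host. The difference was -0.44 ± 0.106 (SE) on the log2(TPM + 1) scale in WT hosts, or 26.2% lower (adjusted p = 0.027), and -0.55 ± 0.106 in KO hosts, or 31.8% lower (adjusted p = 0.00327). Both are under the 2-fold threshold, so Ftl1 was not called. Without that threshold 6.51% of all tested genes passed as lower in WT hosts and 10.5% in KO hosts, and the median difference over all tested genes was -0.35 and -0.32.

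The size of the Ftl1 difference depended on how libraries were scaled. In KO hosts it was 0.04 (adjusted p = 0.889) after median-ratio scaling and -1.44 (adjusted p = 9.05e-07) after quantile normalization, so its direction held on the TPM and quantile scales and not on the median-ratio scale. In WT hosts it was -0.36 (adjusted p = 0.153) and -0.76 (adjusted p = 0.000397), and leaving out growing WT replicate 1, 2 or 3 gave an adjusted p of 0.0909, 0.0636 or 0.1 with differences between -0.41 and -0.47. The adjusted p was also above 0.05 with no filter (0.0957) and in a fit of only the groups compared (0.169), and the difference was -0.28 (adjusted p = 0.0107) without dormant WT replicate 1. The interaction, which sets the dormant against growing difference of KO hosts against that of WT hosts, was -0.11 (adjusted p = 0.736) on TPM, 0.40 (adjusted p = 0.242) after median-ratio scaling, -0.68 (adjusted p = 0.00656) after quantile normalization and -0.27 (adjusted p = 0.0446) without dormant WT replicate 1. Between hosts Ftl1 differed by -0.06 in dormant libraries (-0.294 to 0.172), which was 0.46 (adjusted p = 0.0324) after median-ratio scaling, -0.20 (adjusted p = 0.126) after quantile normalization and -0.22 (adjusted p = 0.0186) without dormant WT replicate 1. In growing libraries the hosts differed by 0.05 (-0.18 to 0.286), which was 0.47 (adjusted p = 0.0261) after quantile normalization.

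**Figure D1:**
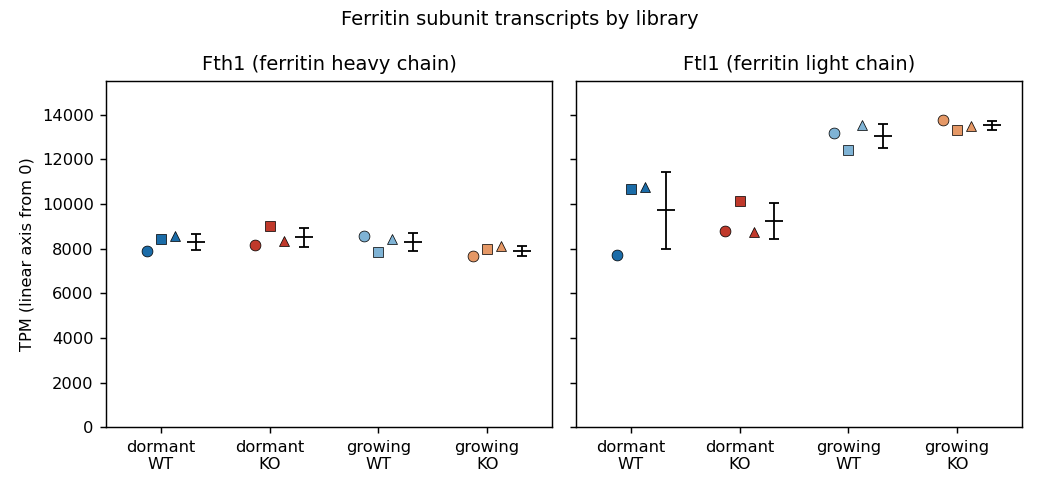
TPM of Fth1 (left) and Ftl1 (right) in each library on a linear axis from 0, with 1 symbol per library (circle, square and triangle for replicates 1, 2 and 3) and the mean ± SD of each group (n = 3) beside it. Fth1 stays between 7666.16 and 8997.58 TPM, whereas every dormant Ftl1 value is at most 10747.30 and every growing one at least 12429.99.

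The ratio of the 2 chains within a library does not depend on scaling by a common factor. Fth1 divided by Ftl1, each with 1 TPM added, was 1.02, 0.787 and 0.799 for dormant cells of WT hosts and 0.928, 0.887 and 0.952 for those of KO hosts. In growing cells it was 0.651, 0.632 and 0.625 for WT and 0.558, 0.597 and 0.6 for KO hosts. All 6 dormant libraries lay above all 6 growing ones. The dormant ratio was 1.36-fold the growing one in WT hosts (log2 difference 0.44) and 1.58-fold in KO hosts (0.66), each with a two-sided exact permutation p = 0.1, the smallest that 3 against 3 libraries can give. Between hosts the log2 ratio differed by 0.10 in dormant cells, where the groups overlapped (exact p = 0.4), and by -0.12 in growing cells, where they did not (exact p = 0.1). These are 4 of 8 ratio tests, none of which can pass 0.05 at this size. The difference in WT hosts was between 0.32 and 0.51 with any 1 library left out and that in KO hosts between 0.62 and 0.68.

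**Figure D2:**
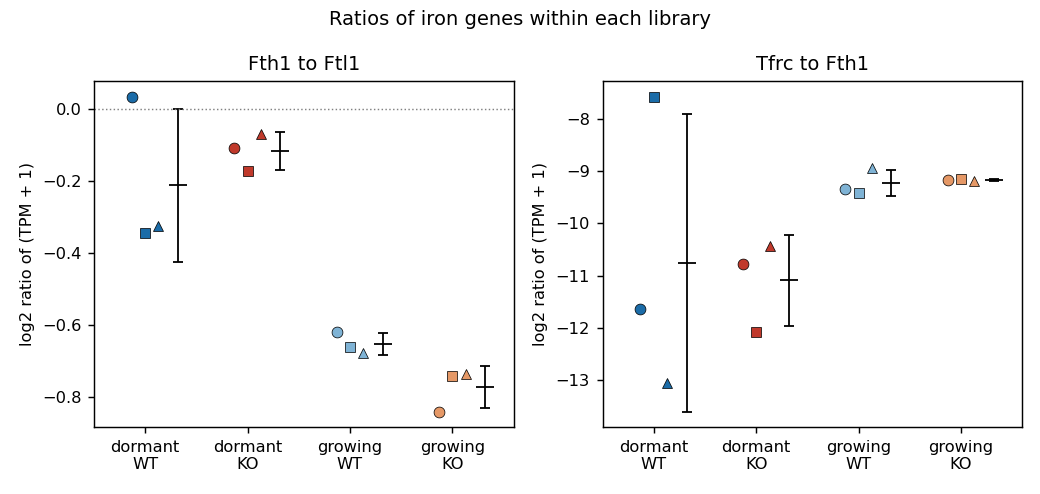
Log2 ratio of Fth1 to Ftl1 (left, dotted line at equal TPM) and of Tfrc to Fth1 (right) within each library, with 1 symbol per library (circle, square and triangle for replicates 1, 2 and 3) and the mean ± SD of each group (n = 3). The dormant Fth1 to Ftl1 ratios lie above the growing ones in both hosts, and the Tfrc to Fth1 ratio spreads widely in the dormant WT libraries.

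Ncoa4 (ENSMUSG00000056234.15, chr14:32159865-32179855), the cargo receptor that delivers ferritin to lysosomes, had higher values in dormant than in growing cells of both hosts. In WT hosts its levels were 27.32, 39.54 and 49.77 TPM in dormant cells and 14.61, 21.28 and 11.40 TPM in growing cells. In KO hosts they were 41.40, 54.20 and 39.61 TPM in dormant cells and 12.41, 33.26 and 8.80 TPM in growing cells. The groups did not overlap in either host. The difference was 1.25 ± 0.508 in WT hosts (adjusted p = 0.158) and 1.47 ± 0.508 in KO hosts (adjusted p = 0.0667), and Ncoa4 was not called in either. In KO hosts it passed in 6 of 23 alternatives. It did so with array weights (adjusted p = 0.0469), without dormant WT replicate 1 or 2 (0.0495 and 0.0487), after median-ratio scaling (2.03, adjusted p = 0.0149), after quantile normalization (1.90, adjusted p = 0.0248) and without growing KO replicate 2, which held the highest growing value (1.99, adjusted p = 0.0182). Between hosts it differed by 0.24 in dormant libraries (adjusted p = 0.794), by 0.74 (adjusted p = 0.314) after median-ratio scaling and by 0.73 (adjusted p = 0.342) after quantile normalization. In growing libraries the hosts differed by 0.02 (adjusted p = 1), and by -0.51 to 0.40 with a library left out.

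Of the genes of uptake, Tfrc (ENSMUSG00000022797.16, chr16:32608920-32632794), whose 3′ UTR holds the matches shown above, was even in growing cells and scattered in dormant ones. Growing cells had 12.33, 10.55 and 16.29 TPM in WT hosts and 12.39, 13.10 and 12.92 TPM in KO hosts. In dormant KO libraries it was at 3.67, 1.08 and 5.08 TPM, below every growing library, and in dormant WT libraries at 1.49, 43.28 and 0. The difference between dormant and growing cells was -1.83 ± 1.105 in KO hosts (adjusted p = 0.295) and -1.53 ± 1.105 in WT hosts (adjusted p = 0.435). In WT hosts it was -3.14 (adjusted p = 0.0101) without dormant WT replicate 2 and -0.40 (adjusted p = 0.85) without replicate 3. In KO hosts it passed in 3 of 23 alternatives, a fit of only the groups compared (adjusted p = 0.0435), array weights (adjusted p = 0.0493) and without dormant WT replicate 2 (adjusted p = 0.0305), which is no part of that comparison and enters through the shared spread. The ratio of Tfrc to Fth1 was 0.263-fold in dormant against growing KO libraries, which did not overlap (exact permutation p = 0.1), and its groups overlapped in WT hosts (log2 difference -1.53, exact p = 0.4).

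Slc11a2 (ENSMUSG00000023030.16, chr15:100387898-100425072), the endosomal iron transporter, overlapped between groups in all 4 comparisons. Dormant cells had 45.85, 12.89 and 0.34 TPM in WT hosts and 3.77, 0.85 and 6.09 TPM in KO hosts, and growing cells 7.14, 13.51 and 9.93 TPM in WT hosts and 10.24, 2.74 and 7.71 TPM in KO hosts. Its largest difference, between dormant KO and dormant WT libraries, was -1.27 (adjusted p = 0.454), and it was -2.68 (adjusted p = 0.0257) without dormant WT replicate 3, which held the lowest value. Without dormant WT replicate 1, which held the highest value, the difference was -0.12 (adjusted p = 0.955). Slc11a1 (ENSMUSG00000026177.11, chr1:74375195-74386062), the phagosomal transporter of macrophages and neutrophils, was detected in growing cells too, at 17.99, 33.90 and 30.33 TPM in WT and 36.31, 21.31 and 15.15 in KO hosts. Its dormant KO values of 10.46, 11.68 and 7.97 TPM all lay below these. In dormant WT libraries it was at 106.22, 0.03 and 39.29 TPM, on both sides of every other group. The difference between dormant and growing libraries was -1.12 in KO hosts (adjusted p = 0.607) and -0.74 in WT hosts (adjusted p = 0.785). In WT hosts this difference was -2.09 (adjusted p = 0.256) without dormant WT replicate 1 and turned to 1.26 (adjusted p = 0.157) without replicate 2. Between the dormant groups it was -0.59 (adjusted p = 0.798), and -2.59 (adjusted p = 0.00441) without dormant WT replicate 2, the library at 0.03 TPM. Its direction turned without dormant WT replicate 1 (0.76, adjusted p = 0.668) or 3 (0.06, adjusted p = 0.996).

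Slc40a1 (ENSMUSG00000025993.10, chr1:45908068-45926523), which encodes ferroportin, the iron exporter, was low throughout. It was at 9.23, 7.32 and 7.64 TPM in dormant KO against 0.06, 6.39 and 2.02 in growing KO libraries, groups that did not overlap. In WT hosts it was at 12.07, 28.73 and 0 TPM in dormant and 2.04, 0.94 and 0 in growing libraries. The difference was 1.65 in KO hosts (adjusted p = 0.353) and 2.01 ± 1.119 in WT hosts (adjusted p = 0.302). In WT hosts it was 3.45 (adjusted p = 0.0241) without dormant WT replicate 3, the dormant library at 0. Without dormant WT replicate 2, which held the highest value, it was 1.001 (adjusted p = 0.601). Macrophages are a known source of this transcript, and their markers were higher in dormant than in growing libraries of both hosts, with 7 of 13 tested markers called higher in WT and 8 of 13 in KO hosts. Their part in the Slc40a1 values was not tested.

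Hmox1 (ENSMUSG00000005413.8, chr8:75093621-75100589), which breaks heme down to iron, biliverdin and carbon monoxide, was the only member called in any of the 5 comparisons. The dormant KO libraries had 28.02, 68.08 and 35.21 TPM and the dormant WT libraries 30.31, 0 and 0.58 TPM, a difference of 3.51 ± 1.061 (1.179 to 5.834, adjusted p = 0.0321). The groups overlapped, since dormant WT replicate 1 lay above the lowest dormant KO library, and the call rests on the other 2 dormant WT libraries being at or near 0. These are also the libraries with the largest shares of the genes counted above at 0, 12.2% and 9.03%. The adjusted p exceeded 0.05 in 9 of 23 alternatives, among them without dormant WT replicate 2 (2.57, adjusted p = 0.0845) or 3 (2.90, adjusted p = 0.0855), without dormant KO replicate 1, 2 or 3 (0.0599, 0.107 and 0.074), and in a fit of only the groups compared (0.186). In the same comparison 4 of 6 tested erythroid, 6 of 7 neutrophil and 2 of 13 macrophage markers were called higher in KO hosts, where 12.9% of all tested genes were. So were 8 of 9 endothelial, 7 of 10 alveolar type 2 and 4 of 6 T and NK cell markers. Their part in the Hmox1 difference was not tested.

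In growing cells Hmox1 was at 22.14, 46.48 and 23.70 TPM in KO and at 5.84, 14.90 and 9.43 TPM in WT hosts. The groups did not overlap, but the difference of 1.53 had an adjusted p of 1. The comparison of dormant with growing libraries gave -1.51 in WT (adjusted p = 0.422) and 0.47 in KO hosts (adjusted p = 0.811), and the interaction was 1.98 (adjusted p = 0.503). Single dormant WT libraries moved these values. In WT hosts the difference was -3.05 (adjusted p = 0.00661) without replicate 1 and -0.57 (adjusted p = 0.784) without replicate 2. The interaction was 3.53 (adjusted p = 0.014) without replicate 1 and at its lowest 1.04 with a library left out.

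**Figure D3:**
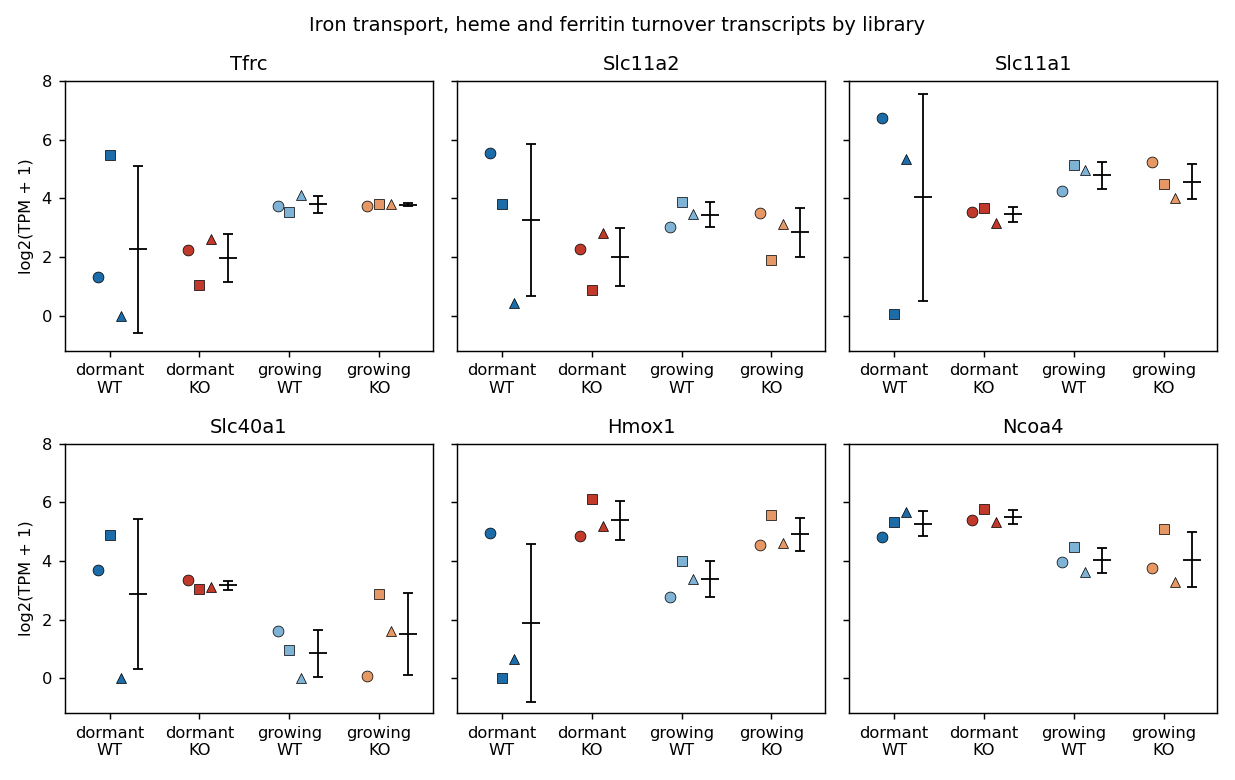
Levels of the other 6 members on the log2(TPM + 1) scale, with 1 symbol per library (circle, square and triangle for replicates 1, 2 and 3) and the mean ± SD of each group (n = 3). The dormant WT libraries spread from 0 to 106.22 TPM over the 6 genes, whereas Ncoa4 is higher in dormant than in growing libraries of both hosts without overlap.

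Counted over the members, 1 of 8 was called between dormant KO and dormant WT libraries, where 22.3% of all tested genes were called and 12.9% were called higher. Between growing KO and growing WT libraries 0 of 8 were called (background 0.977%), and 0 of 8 had an unadjusted limma p under 0.05 (7.53% of all tested genes). Between dormant and growing libraries 0 of 8 were called in WT hosts (background 7.51%) and 0 of 8 in KO hosts (background 17.8%). At an unadjusted limma p under 0.05 these were 2 of 8 in each host, Ftl1 and Ncoa4 in both, where 23.9% of all tested genes reached it in WT and 30.8% in KO hosts. For the interaction 0 of 8 were called (background 10.1%) and 0 of 8 had an unadjusted p under 0.05 (23.3% of all tested genes). Groups did not overlap for 0, 1, 2 and 6 of the 8 members in these 4 comparisons in order, where 31.5%, 23.9%, 26.6% and 44.7% of all tested genes did not overlap. The 6 in KO hosts were Fth1, Ncoa4 and Slc40a1, higher in dormant libraries, and Ftl1, Tfrc and Slc11a1, lower there. The 2 comparisons between hosts and the 2 between states share their libraries pairwise, so they are not independent of each other.

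**Figure D4:**
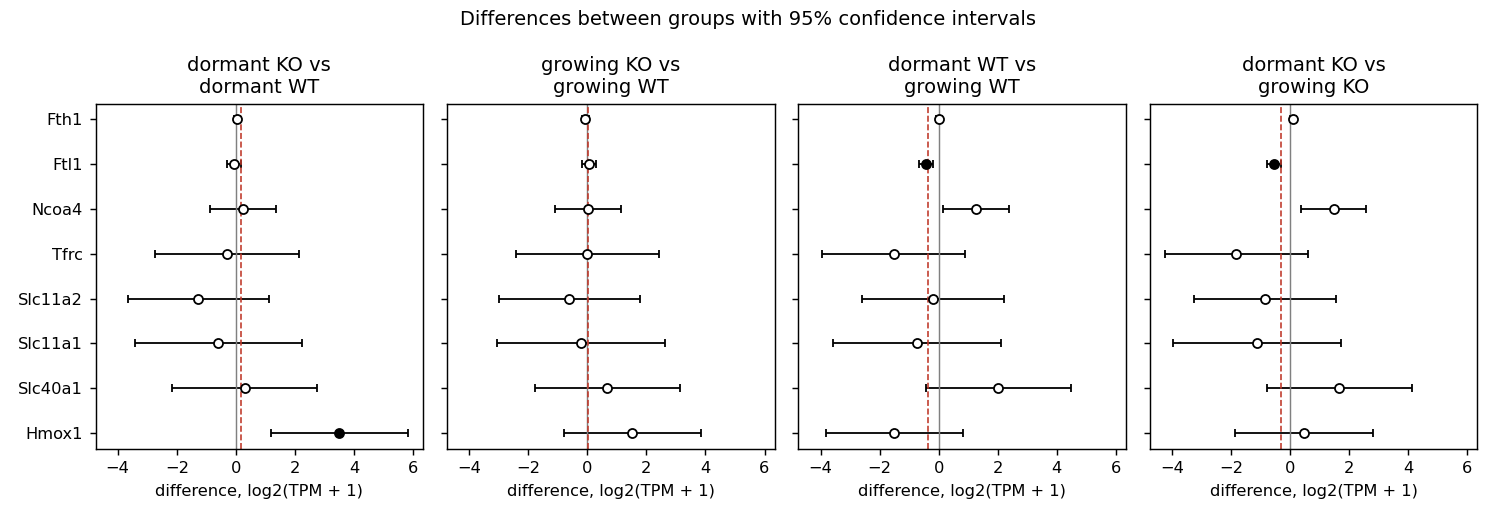
Difference of each member on the log2(TPM + 1) scale (first group minus second) with its 95% confidence interval from limma, in 4 panels, 1 per comparison, filled where the adjusted p was at most 0.05. The red dashed line is the median over all tested genes, and intervals are narrow for Fth1 and Ftl1 and up to several log2 units wide for the other members.

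The order of group means in TPM followed these patterns only in part. Mean TPM was higher in dormant than in growing WT libraries for Tfrc (14.9 and 13.1), Slc11a1 (48.5 and 27.4), Slc11a2 (19.7 and 10.2) and Hmox1 (10.3 and 10.1). Their differences on the log2(TPM + 1) scale were negative, at -1.53, -0.74, -0.19 and -1.51. For Slc40a1 mean TPM was higher in dormant WT than in dormant KO libraries (13.6 and 8.06), with a log2 difference of 0.31 in favor of KO. For Ftl1 the order was growing KO, growing WT, dormant WT and dormant KO, and only the step from growing WT to dormant WT was free of overlap. The other steps between neighboring groups that did not overlap were growing KO above dormant KO for Tfrc and for Slc11a1 and dormant KO above growing KO for Slc40a1. For Fth1, Hmox1, Slc11a2 and Ncoa4 every pair of neighboring groups overlapped.

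The genes with the pattern most like each member were taken by the smallest root mean square difference over the 12 libraries, after each gene was centered on its mean. For Fth1 they were Rps3, a ribosomal protein gene, Dbi and Cox7a2, at 0.128, 0.129 and 0.131 on the log2(TPM + 1) scale. For Ftl1 they were Rpl13, another ribosomal protein gene, Hmgb1 and Fkbp1a, at 0.105, 0.11 and 0.125. Members with lower TPM had no such close match, the nearest being Zbtb4 for Ncoa4 (0.385), Apex2 for Slc11a1 (0.397), Nufip1 for Tfrc (0.467), Large for Slc11a2 (0.56), Ankrd44 for Slc40a1 (0.581) and RP23-391A14.5 for Hmox1 (0.648).

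The wider pathway was followed with 7 lists of 91 iron, heme and Nrf2 genes, of which 90 were in the table and 78 were tested. Between dormant KO and dormant WT libraries 13 were called higher and 10 lower, or 29.5% against 22.3% of all tested genes, with a median difference of 0.19 against 0.17. Between growing KO and growing WT libraries 1 was called higher and 0 lower (1.28% against 0.977%). Between dormant and growing libraries 1 was called higher and 3 lower in WT hosts (5.13% against 7.51%) and 8 higher and 6 lower in KO hosts (17.9% against 17.8%). For the interaction 6 were called higher and 1 lower (8.97% against 10.1%). Of the 78, 7 passed the filter only with the dormant KO libraries counted, among them Slc39a8, Steap4, Cybrd1 and Bmp6. The shares that include the dormant KO libraries therefore carry this selection and are a description. Slc22a17 and Slc7a11, also among the 7, needed the growing KO libraries as well. One listed gene, Cd163, was also among the macrophage markers.

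Of 12 tested iron uptake genes, 5 were called higher and 1 lower in dormant KO than in dormant WT libraries, and 5 higher and 0 lower than in growing KO libraries, against 22.3% and 17.8% of all tested genes called. Of the 12, 4 passed the filter only with their dormant KO values counted, namely Slc39a8, Steap4, Cybrd1 and Slc22a17, the last of which also needed its growing KO values. Nothing is therefore read from these counts. Trf, which encodes the iron carrier transferrin, had 45.48, 89.28 and 41.27 TPM in the dormant and 0.07, 1.24 and 0.02 TPM in the growing libraries of WT hosts (5.38 ± 0.60, adjusted p = 0.000299). In KO hosts it was at 165.77, 284.50 and 211.58 TPM in dormant and 11.63, 48.24 and 45.20 in growing libraries, and its rise in growing KO over growing WT libraries (4.51 ± 0.60, adjusted p = 0.00364) was the only call of the pathway there. Slc39a8, a transporter of zinc, manganese and iron, had 53.15, 71.13 and 54.42 TPM in the dormant KO libraries, whereas each of the 3 dormant WT libraries lists it at 0, and it was at most 1.94 TPM in growing cells. Lcn2, a carrier of iron-binding siderophores that is abundant in neutrophils, was at 68.58, 69.63 and 106.73 TPM in dormant KO against 0, 0 and 15.62 in dormant WT libraries (adjusted p = 0.0129). The metalloreductase gene Steap4 had 7.92, 17.74 and 7.47 TPM in the dormant KO libraries and was 0 in every dormant WT library, whereas its relative Steap2 was lower in dormant KO, at 0.62, 2.18 and 2.2 against 34.97, 24.48 and 4.85 TPM (adjusted p = 0.0284).

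Of the 4 tested genes of export and the hepcidin axis, 2 were called higher and 1 lower in dormant KO than in dormant WT libraries, where 22.3% of all tested genes were called. The list has 10 genes in the table, so most were too low to test, and Bmp6 was tested only through its dormant KO values. Bmp6, the ligand that induces hepcidin in liver, had 13.46, 21.28 and 18.50 TPM in the dormant KO libraries, was listed at 0 in each dormant WT library and reached at most 1.03 TPM in growing cells. Cp, which encodes the ferroxidase ceruloplasmin, was at 11.54, 7.60 and 8.54 TPM in dormant KO against 36.95, 58.68 and 70.91 in dormant WT libraries (-2.44 ± 0.43, adjusted p = 0.00145). The high values of Slc39a8, Lcn2 and Bmp6 fell in the libraries in which alveolar type 2 markers were called higher for 7 of 10, endothelial markers for 8 of 9 and neutrophil markers for 6 of 7 tested genes than in dormant WT libraries (12.9% of all tested genes were called higher). The part of those cells was not tested.

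Heme genes that were called in WT hosts were all lower in dormant cells, as were 737 of the 977 genes called there over all tested genes. Of 17 tested, 0 were called higher and 3 lower in dormant than in growing WT libraries (17.6% against 7.51% of all tested genes). Alad, an early enzyme of heme synthesis, had 61.47, 60.03 and 120.09 TPM in the dormant and 197.36, 285.26 and 233.32 TPM in the growing libraries of WT hosts (-1.62 ± 0.27, adjusted p = 0.0047). Ppox, a later enzyme, was at 0.10, 0.02 and 0 TPM against 11.65, 12.40 and 11.35 (adjusted p = 0.00221), and the heme and folate transporter gene Slc46a1 was listed at 0 in all 3 dormant WT libraries against 6.26, 3.13 and 13.64 TPM (adjusted p = 0.0396). The Ppox and Slc46a1 calls rest on values at or near 0 in the dormant WT libraries. In these, 4.27 to 12.2% of the 4009 genes counted above were listed at 0. In KO hosts 0 of the 17 were called by limma between dormant and growing libraries, and 4 had an unadjusted p under 0.05 (30.8% of all tested genes did), with Alad at 378.72, 451.92 and 341.03 TPM in the dormant and 240.18, 236.98 and 223.89 in the growing group. For Alad the difference between the hosts passed the interaction test (2.35 ± 0.388, adjusted p = 0.0033). Between dormant KO and dormant WT libraries 3 of the 17 were called higher, namely Alad (2.33), Ppox (2.22) and Hp (2.87), which encodes the hemoglobin-binding protein haptoglobin, and 2 lower (29.4% against 22.3%). The lower ones were Fech (-1.52), the last enzyme of heme synthesis, and Uros, another enzyme of the pathway, at 0, 28.51 and 9.10 against 43.41, 64.97 and 70.13 TPM (adjusted p = 0.0362).

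Of 9 tested Nrf2 targets other than Hmox1, 1 was called higher and 3 lower in dormant KO than in dormant WT libraries (44.4% against 22.3% of all tested genes), with a list median of -1.13 against 0.17 over all tested genes. The gene called higher was Slc7a11 (1.64, adjusted p = 0.0401). It passed the filter only with both the dormant KO and the growing KO libraries counted, so its call and this share carry that selection and are a description. Nqo1, a quinone reductase and a common Nrf2 readout, was at 0.75, 5.22 and 0 TPM in dormant KO against 22.06, 68.84 and 40.06 in dormant WT libraries (-4.19 ± 0.64, adjusted p = 0.000555) and 76.75, 92.81 and 80.01 in growing KO libraries (-5.24 ± 0.64, adjusted p = 0.000175). G6pdx, which supplies NADPH, was at 3.23, 13.63 and 4.15 TPM in dormant KO against 24.10, 38.00 and 42.26 in growing KO libraries (-2.35 ± 0.54, adjusted p = 0.00924). Of 11 tested regulators, 1 was called higher and 1 lower in dormant KO than in dormant WT libraries (18.2% against 22.3%). Epas1, a hypoxia-inducible factor that is abundant in endothelium, was at 98.38, 69.57 and 103.80 TPM in dormant KO against 0.95, 14.78 and 0.01 in dormant WT libraries (adjusted p = 0.00163), whereas Hif1a, the other hypoxia-inducible factor of the list, was lower (-2.38 ± 0.581, adjusted p = 0.0108).

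Storage and chaperone genes other than ferritin gave 0 limma calls of 7 tested between dormant and growing WT libraries, 2 of them at an unadjusted p under 0.05 (23.9% of all tested genes were), and 2 lower calls in KO hosts (28.6% against 17.8% of all tested genes). One of these was Pcbp4, of the family of iron chaperones, at 0.28, 4.72 and 1.32 TPM in dormant KO against 12.59, 21.01 and 28.58 in growing KO libraries (adjusted p = 0.0354). Of 18 tested genes of mitochondrial iron and iron-sulfur assembly, 1 was called between dormant and growing KO libraries (5.56% against 17.8%), the mitochondrial chaperone gene Hspa9, at 27.66, 33.71 and 26.76 against 107.02, 157.79 and 132.57 TPM (-2.12 ± 0.37, adjusted p = 0.00197).

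**Figure D5:**
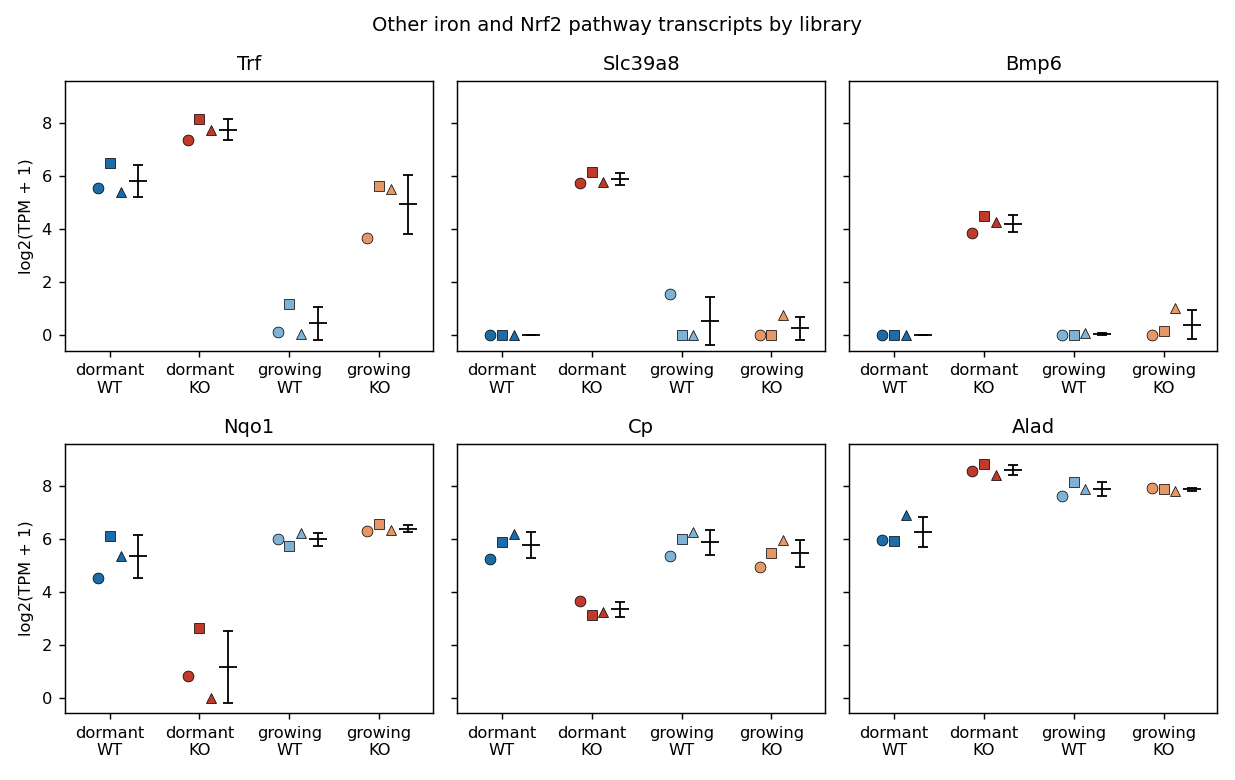
Levels of 6 pathway genes on the log2(TPM + 1) scale, with 1 symbol per library (circle, square and triangle for replicates 1, 2 and 3) and the mean ± SD of each group (n = 3). Slc39a8 and Bmp6 are at least at 13.46 TPM in the dormant KO libraries and at most at 1.94 TPM elsewhere, Nqo1 and Cp are lowest there, and Trf is higher in dormant than in growing libraries of both hosts.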

How the data were processed

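Gene levels were read from 1 table for 12 libraries, with 3 per group, grouped by the labels. The deposited values are TPM, which the authors estimated with RSEM after trimming with Cutadapt and alignment with STAR to mouse build mm10 (submitters' processing notes: cutadapt 1.18, STAR 2.5.2b, RSEM 1.3.3). The methods describe a full-length low-input protocol on sorted aliquots and the labels a TruSeq mRNA kit. Columns summed to 1000000 to 1000001, so depth is unknown, no counting interval was computed, and precision rests on the spread between libraries. RSEM shares reads between similar genes by estimation, and the use of strand is not given in the sources used here. The paper's figure legends count 3 mice per group, but neither the labels nor the methods say that each library is a separate animal, and if they are not, p-values measure only the spread between these samples. The table has 30 more per-sample columns whose names match no labelled sample, and these were left out.

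TPM was used as deposited on the log2(TPM + 1) scale. Genes with at least 1 TPM in at least 3 libraries were fitted in R 4.3.3 with limma 3.58.1 (moderated with a mean trend, 8 residual degrees of freedom) with 1 mean per group and tested two-sided in 5 contrasts. Fold changes on this scale understate those of low genes. Within-library ratios were compared by exact permutation tests. The authors' DESeq2 count model was not used because TPM are not counts. Alternatives were pseudocounts of 0.1 and 5, a filter at 5 TPM or none, quantile normalization, median-ratio scaling (5729 genes above 0 in every library), array weights, a fit of only the groups compared, a block for the replicate number, summed ferritin genes, no fold threshold and each library left out. The scaled coefficients of variation were added after the values were seen. Pathway genes were named where called without overlap between groups, up to 4 higher and 4 lower per comparison and up to 4 for the interaction. Alad for the interaction and its values in KO hosts, and Alad, Ppox, Hp, Fech and Hif1a between the dormant groups, were given after their values were seen. The members and lists were chosen with earlier results of these data known. Symbols are those of the deposited table, made with an earlier GENCODE release, and coordinates are those of GENCODE M21 on GRCm38.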

Additional observations from a re-analysis of the deposited data

How the results depend on the processing

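Between dormant KO and dormant WT libraries the count of members called fell from 1 to 0 with no filter (Hmox1 adjusted p = 0.0806), with only the groups compared (0.186), with array weights (0.0967) and with the replicate block (0.0521), and was between 0 and 1 with a library left out, where Slc11a1 or Slc11a2 took the place of Hmox1 without dormant WT replicate 2 or 3. Between dormant and growing WT libraries it went from 0 to 1 with no fold threshold (Ftl1) and was 0 to 1 with a library left out, as Hmox1 (-3.05, adjusted p = 0.00661), Tfrc (-3.14, 0.0101) or Slc40a1 (3.45, 0.0241) passed without dormant WT replicate 1, 2 or 3. Between dormant and growing KO libraries it went from 0 to 1 with median-ratio scaling, with only the groups compared and with no fold threshold, to 2 with quantile normalization and with array weights, and was 0 to 2 with a library left out. For the interaction it was 0 to 1 with a library left out, namely Hmox1 (3.53, adjusted p = 0.014) without dormant WT replicate 1 and Slc11a1 (-2.38, 0.0492) without replicate 2. Between growing KO and growing WT libraries it was 0 in all 23 alternatives. The cause of these changes was not tested.

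The log2 ratio of Tfrc to Fth1 turned from -0.33 to 0.16 without dormant KO replicate 2 and to 1.26 without dormant WT replicate 2 between the dormant groups, a range of -1.49 to 1.26, and from 0.062 to -0.031 without growing WT replicate 2 between the growing groups, a range of -0.031 to 0.21. It could not be computed without a pseudocount where dormant WT libraries entered, since Tfrc was at 0 in 1 of them. The Fth1 to Ftl1 ratio kept its direction in all 8 alternatives of each comparison.

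Counts over all genes moved by over 1.5 times from 2898 to 1418 (array weights) and 1680 (only the groups compared) between the dormant groups, from 127 to 516 and 308 between the growing groups (66 to 163 with a library left out), from 977 to 310 (array weights) and 637 (no filter) between dormant and growing WT libraries (447 to 1918), from 2313 to 3586 (array weights) between dormant and growing KO libraries (1551 to 3117), and from 1312 to 861 for the interaction without dormant KO replicate 1. Scaling shifted the median difference over all genes. Between the dormant groups it was 0.17 on TPM, 0.50 after median-ratio scaling and -0.14 after quantile normalization, with 57.9%, 74.0% and 50.1% of calls higher. Between dormant and growing KO libraries it was -0.32, 0.09 and -0.14, with 46.7%, 69.2% and 56.9% higher, and between dormant and growing WT libraries -0.35, -0.28 and 0.04, with 24.6%, 29.1% and 50.6% higher. For the interaction 61.2% and 79.1% of calls were higher on TPM and after median-ratio scaling. The coefficient of variation went from 4.59% to 22.5% for Fth1 and from 19.1% to 14.7% for Ftl1 after median-ratio scaling.

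Replicate numbers were shared between groups, and the sample titles do not say whether they pair the samples. Same-numbered libraries deviated from their group means with correlations of -0.0136 to 0.0206, and in KO hosts each dormant library correlated best with the growing library of its own number. Correlations this small over so few libraries cannot decide whether the samples were paired. With the replicate block the only change of a member call was the loss of Hmox1 given above, and 86 in place of 127 genes were called between the growing groups. Since TPM keeps no depth, a level of 0 in 1 of these libraries does not show that the transcript was absent.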
